A study of Mus musculus with 6 samples.

Results

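The genes of MHC class I presentation were examined in RNA from mouse aorta. They are 9 of the 55335 genes of the count table, taken by symbol alone: the heavy chains H2-K1 and H2-D1, their light chain B2m, the peptide transporter subunits Tap1 and Tap2, tapasin (Tapbp), the immunoproteasome subunits Psmb8 and Psmb9, and the transactivator Nlrc5. All 9 passed the filter on low counts, which kept 16612 genes. The libraries came from wild-type mice of the strain labelled c57b6l, 3 aged 6 weeks (young) and 3 aged 6 months (aged), with no treatment named. The study's methods describe male C57BL/6 mice whose aorta was freed of the surrounding fat. Mice of 6 months are adult rather than senescent, so the contrast is that of a growing with a mature vessel wall. Each library is labelled as a separate repeat within its age group, and p-values measure the spread between these 6 libraries.

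Class I molecules display peptides of proteins made inside the cell, and CD8+ T cells read them on nearly all nucleated cells. Proteasomes cut the proteins, with Psmb8 and Psmb9 taking the place of constitutive subunits where interferon acts, the Tap1 and Tap2 proteins carry the peptides into the endoplasmic reticulum, and tapasin holds the empty heavy chain with B2m beside the transporter until a peptide is bound. Nlrc5 drives transcription of many of these genes from their promoters, and in the vessel wall both endothelium and smooth muscle can raise class I on exposure to interferon gamma.

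The libraries held between 31049632 and 45832185 counts. Smooth muscle markers summed to between 27960 and 40140 CPM (counts per library size, scaled by TMM factors to a shared total). The 10 T and NK cell markers summed to between 1.36 and 7.21 CPM. Of these, Nkg7 and Klrb1c were at 0 in all 6 libraries, whereas Lck had 7 to 52 counts in each. Young replicate 1 stood apart, with 14806 counts of Xist, the RNA of the inactive X chromosome, against 7 to 24 in the other libraries, and 53 counts of the Y-linked Ddx3y against 1488 to 2117, which goes against the stated sex. Aged replicate 2 stood apart as well, since on the first principal component of log2 CPM it lay at -9.12, among the young libraries (-59.7 to -7.78), whereas aged replicates 1 and 3 lay at 65.8 and 56.5. Results are therefore given with and without these libraries. Mitochondrial genes took 14.9% to 21.2% of the counts in young and 23.1% to 30.4% in aged aorta.

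Per length, as FPKM (counts scaled for gene length and library total, from the deposited table), the class I genes had a wide range of levels. B2m stood first, at 348 to 667 FPKM over the 6 libraries, followed by H2-D1 at 74.5 to 132, H2-K1 at 22.96 to 43.7, Tapbp at 8.79 to 16.5 and Tap2 at 5.75 to 7.51. Each of these 5 genes was above the next in 6 of 6 libraries. The remaining 4 were at low levels and were not cleanly ordered. Psmb8 (0.831 to 4.43) was above Tap1 (0.820 to 1.37) in 4 of 6 libraries, Tap1 was above Psmb9 (0.628 to 1.43) in 3 of 6, and Psmb9 was above Nlrc5 (0.233 to 0.798) in 5 of 6. The count behind a value was as low as 79, for Nlrc5 in aged replicate 1, and as high as 22307, for B2m in the same library.

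Between aged and young aorta, no class I gene passed the threshold of 0.05 on p adjusted over all genes tested by edgeR's quasi-likelihood test, and neither did any of the 16612 genes (0%). By DESeq2, 338 genes (2.26% of those with an adjusted p) passed, with none of the 9 among them. At an unadjusted p below 0.05 by edgeR, 4 of the 9 were higher in aged aorta (H2-K1, H2-D1, B2m and Psmb8) and 0 were lower, against 5.56% of all genes higher and 4.82% lower. Without young replicate 1 the count was 5 of 9, Psmb9 being added, against 5.9% of all genes. Without aged replicate 2 it was 4 of 9 against 8.19%. The count was smaller when other libraries were left out: 1 of 9, H2-K1, without young replicate 2 (4.21% of all genes), young replicate 3 (3.85%) or aged replicate 1 (4.26%), and 2 of 9, H2-K1 and B2m, without aged replicate 3 (3.67%). Of the 9 log2 fold changes of aged over young, 7 were above 0, against 52.1% of all genes, with a median of 0.59 against 0.02. In bulk tissue, fewer cells of a type and less RNA per cell cannot be told apart.

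H2-K1 encodes a classical heavy chain, which binds the peptide. It lies on chromosome 17 of GRCm38 from 33996017 to 34000347 on the minus strand. H2-K1 was at 101, 69.4 and 67.6 CPM in young replicates 1 to 3 and at 150, 112 and 148 CPM in aged replicates 1 to 3. Every aged library was above every young one, and young replicate 1 was the highest of its group. Young aorta averaged 79.2 ± 18.5 CPM (SD, n = 3) and aged aorta 137 ± 21.6 CPM (SD, n = 3), a log2 fold change of 0.79 (SE 0.22, 95% interval 0.28 to 1.30) with an adjusted p of 0.377 by edgeR. It was 1.00 without young replicate 1, 0.91 without aged replicate 2 and no lower than 0.69 with any single library left out.

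H2-D1, the other classical heavy chain, lies further along chromosome 17, from 35262730 to 35267499 on the plus strand. Its level was 264, 196 and 212 CPM in young and 392, 262 and 422 CPM in aged replicates 1 to 3. The groups overlapped, since aged replicate 2 was just under young replicate 1, while aged replicates 1 and 3 were far above all young libraries. The means were 224 ± 35.3 (SD, n = 3) and 359 ± 85.2 (SD, n = 3) CPM, with a log2 fold change of 0.68 (SE 0.23, 95% interval 0.15 to 1.21) and an adjusted p of 0.407 by edgeR. Without young replicate 1 it was 0.82, without aged replicate 2 it was 0.86, and the lowest value with a library left out was 0.55, without aged replicate 3.

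B2m, the light chain of class I molecules, lies outside the MHC, on chromosome 2 from 122147686 to 122153083. B2m was at 398, 305 and 327 CPM in young and 671, 443 and 468 CPM in aged aorta. All aged libraries were above all young ones, with aged replicate 1 well above the other two. The means were 343 ± 48.6 (SD, n = 3) and 527 ± 125 (SD, n = 3) CPM, and the log2 fold change was 0.62 (SE 0.22, 95% interval 0.11 to 1.13; adjusted p 0.420 by edgeR). It was 0.75 without young replicate 1 and 0.73 without aged replicate 2, but 0.41 without aged replicate 1.

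H2-K1 and B2m were thus 2 of 9 class I genes with all aged CPM above all young CPM, against 7.74% of all genes. In the other direction 0 of 9 did not overlap, against 8.78%. In the deposited FPKM the groups of H2-K1 and B2m overlapped narrowly. H2-K1 was at 32.55 in young replicate 1 and 32.53 in aged replicate 2. B2m was at 441.08 in young replicate 1, against 441.04 and 439.8 in aged replicates 2 and 3. With 5 libraries a separation in CPM is easier to reach. Without young replicate 1 it held for 6 of 9 higher (H2-K1, H2-D1, B2m, Tap2, Psmb8 and Psmb9; 15.8% of all genes) and 1 of 9 lower (Nlrc5; 17.1%). Without aged replicate 2 it held for 4 of 9 higher (H2-K1, H2-D1, B2m and Psmb8; 17.5%) and 1 of 9 lower (Nlrc5; 15.8%).

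**Figure D1:**
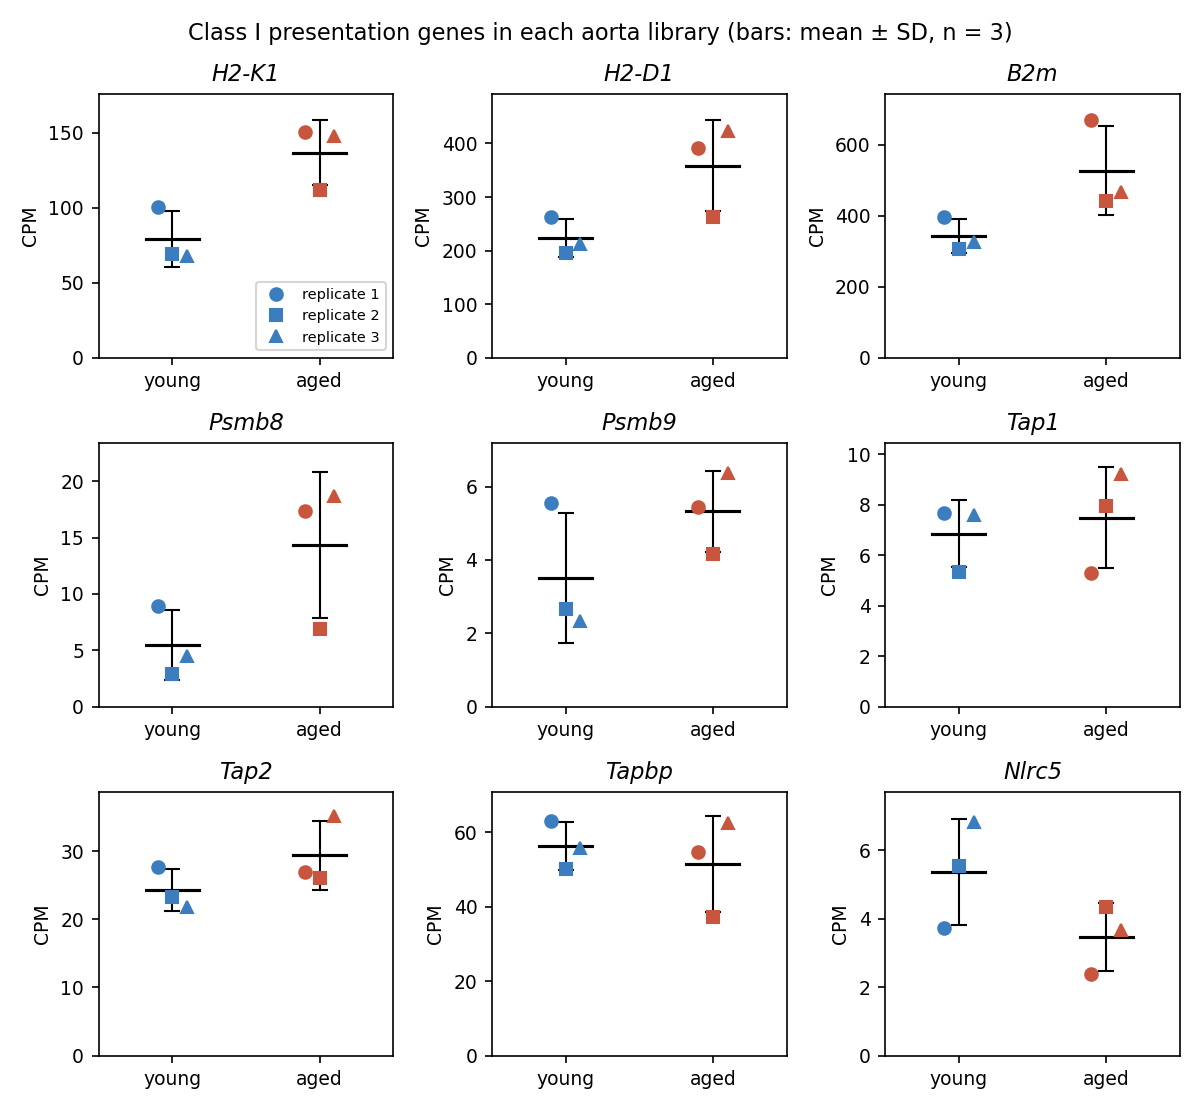
Level of each class I presentation gene in CPM (y axis, from 0) in young and aged aorta (x axis), with 1 point per library, its shape giving the replicate number, and bars for mean ± SD (n = 3). All 3 aged points lie above all 3 young points for H2-K1 and B2m, aged replicate 2 is the lowest aged point for H2-K1, H2-D1, B2m, Psmb8, Psmb9, Tap2 and Tapbp, and Nlrc5 has a lower mean in aged aorta (3.47 against 5.37 CPM).

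The balance of the classical heavy chains was compared within each library. The log2 ratio of H2-K1 to H2-D1 in FPKM was -1.58, -1.69 and -1.84 in young and -1.57, -1.42 and -1.71 in aged aorta. These ranges overlapped, and the difference of 0.14 between the means had p = 0.4 in a two-sided exact permutation test, where 0.1 is the smallest p that 3 against 3 libraries allow. The heavy chain genes share parts of their sequence, and reads from those parts cannot be assigned to 1 of them. Of the distinct stretches of 50 bases in the H2-K1 transcripts of GENCODE M21, 9.63% also occurred in another gene (5.18% in H2-Q10 and 4.08% in H2-D1), and of those of H2-D1, 12.8% did (5.87% in H2-Q1 and 5.44% in H2-K1). H2-Q1 was listed at 0 in all libraries and H2-Q10 reached 24.9 CPM, in aged replicate 2. For B2m the share was 0%.

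The proximal promoters of H2-K1 and B2m are shown because these genes had no overlap between the groups in CPM. A further reason is that their upstream letters hold the same set of motifs. The sequences are those of RefSeq on GRCm38.p6, 5′ to 3′ on the gene's own strand, and cover the 250 bases before the start site, at chr17:34000348-34000597 (minus strand) for H2-K1 and chr2:122147437-122147686 (plus strand) for B2m. Capitals mark matches, on either strand, to an interferon regulatory factor (IRF) motif (GAANNGAAA or GAAANNGAAA), the NF-kappa B consensus, CCAAT (the NF-Y box) and TGACG (the core of the CREB and ATF element).
H2-K1 promoter: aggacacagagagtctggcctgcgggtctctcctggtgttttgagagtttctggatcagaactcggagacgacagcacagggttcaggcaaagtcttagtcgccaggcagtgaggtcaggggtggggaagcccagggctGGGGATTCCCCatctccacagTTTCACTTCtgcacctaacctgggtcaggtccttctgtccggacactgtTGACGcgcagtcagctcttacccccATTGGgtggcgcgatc
B2m promoter: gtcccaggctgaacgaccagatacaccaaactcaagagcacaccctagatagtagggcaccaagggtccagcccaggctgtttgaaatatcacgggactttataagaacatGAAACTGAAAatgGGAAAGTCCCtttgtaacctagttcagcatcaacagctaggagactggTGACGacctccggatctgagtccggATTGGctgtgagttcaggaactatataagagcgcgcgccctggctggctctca

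In H2-K1 the NF-kappa B and IRF matches stand side by side, and H2-D1 has nearly the same block further from its RefSeq start site (35263094). That site and the block lie inside the H2-D1 span given above, so the distance depends on the start used. TGACG (-101 against -41 in H2-K1) and ATTGG (-76 against -16) were further from it as well. The block of 30 bases is at chr17:34000429-34000458, from -111 to -82, in H2-K1 and at chr17:35262923-35262952, from -171 to -142, in H2-D1, and it differs at 1 of 30 positions. In B2m the order is turned round, with the IRF match before the NF-kappa B match, from -139 to -117, at chr2:122147548-122147570.
H2-K1 block: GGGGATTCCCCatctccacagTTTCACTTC
H2-D1 block: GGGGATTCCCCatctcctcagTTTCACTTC
B2m block: GAAACTGAAAatgGGAAAGTCCC

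Over the 190 bases that could be aligned, the H2-K1 and H2-D1 windows were 87.9% identical. An IRF match occurred in 8.82% of 32851 RefSeq promoter windows (6.31% for GAANNGAAA and 2.98% for GAAANNGAAA), the NF-kappa B consensus in 7.25%, CCAAT in 33.8% and TGACG in 17.8%. Windows with both an IRF and an NF-kappa B match made up 0.511%, and those with all 4 kinds 0.0517%, or 17 windows of 16 genes. These 16 genes were H2-K1, H2-D1, B2m, H2-M2, H2-M3, H2-Q4, H2-Q7, H2-T22 and Oasl1 together with Ebp, Gm17750, Gm32007, Gm6034, Pxmp4, Rab28 and Rpusd2, so that 7 of them are genes of the H2 complex. The motifs were picked after the H2-K1 and B2m sequences had been read, so the shares describe the windows and test nothing. Of the 9 class I genes, 7 had a promoter entry, and Tap2 and Nlrc5 had none. Tapbp held CCAAT alone, Psmb8 held none of these motifs, and the Tap1 and Psmb9 windows held CCAAT and TGACG. The RefSeq start sites of Tapbp (33919478), Psmb8 (34198195) and Psmb9 (34187330) lie inside the gene spans given here from GENCODE. The bases before the outer starts of those spans are not covered by these windows, so an absence of motifs holds for the windows alone.

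Psmb8 encodes the inducible subunit that replaces Psmb5 in the immunoproteasome. The gene lies on chromosome 17 from 34197721 to 34201454, between Tap1 and Tap2. Psmb8 was at 8.94, 2.93 and 4.52 CPM in young replicates 1 to 3 and at 17.4, 6.89 and 18.7 CPM in aged replicates 1 to 3, from counts of 102 to 578. Aged replicates 1 and 3 were above every young library, whereas aged replicate 2 lay within the young range. The means were 5.46 ± 3.11 (SD, n = 3) and 14.3 ± 6.46 (SD, n = 3) CPM. This gave a log2 fold change of 1.38, the largest in size of the 9, with a wide error (SE 0.51, 95% interval 0.18 to 2.59; adjusted p 0.440 by edgeR). It was 1.95 without young replicate 1, 1.72 without aged replicate 2 and 1.09 without young replicate 2, the lowest of these values.

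Psmb9, which replaces Psmb6, lies on chromosome 17 from 34181987 to 34187764 on the minus strand. Its levels were 5.55, 2.67 and 2.33 CPM in young and 5.45, 4.16 and 6.37 CPM in aged aorta. Young replicate 1 was as high as the aged libraries and the other young libraries were below all of them. The means were 3.52 ± 1.77 (SD, n = 3) and 5.33 ± 1.11 (SD, n = 3) CPM, with a log2 fold change of 0.59 (SE 0.39, 95% interval -0.33 to 1.52) and an adjusted p of 0.624 by edgeR. Without young replicate 1 the log2 fold change was 1.10 and without aged replicate 2 it was 0.74, whereas without young replicate 3 it was 0.38.

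Whether the inducible subunits differed relative to the constitutive ones was tested as a log2 ratio of FPKM within each library, since each pair competes for 1 place in the proteasome. The ratio of Psmb8 to Psmb5 was -4.28, -5.64 and -4.72 in young and -3.49, -4.66 and -3.11 in aged aorta, so the constitutive subunit was far more abundant in every library. The aged mean was higher by 1.13, with overlap between the groups (two-sided exact permutation test, p = 0.2, adjusted over the 3 ratios 0.45). The ratio of Psmb9 to Psmb6 was -5.36, -6.25 and -6.25 in young and -5.75, -5.60 and -5.05 in aged aorta, a difference of 0.49 (exact permutation p = 0.3, adjusted 0.45). For Psmb10 to Psmb7, the remaining pair, it was -2.10, -1.91 and -2.16 in young and -1.49, -3.01 and -1.12 in aged aorta, with aged replicates on both sides of the young range and a difference of 0.19 (exact permutation p = 0.9, adjusted 0.9). None of these could go below 0.1. The difference for Psmb10 to Psmb7 turned to -0.01 without aged replicate 1 and to -0.19 without aged replicate 3.

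**Figure D2:**
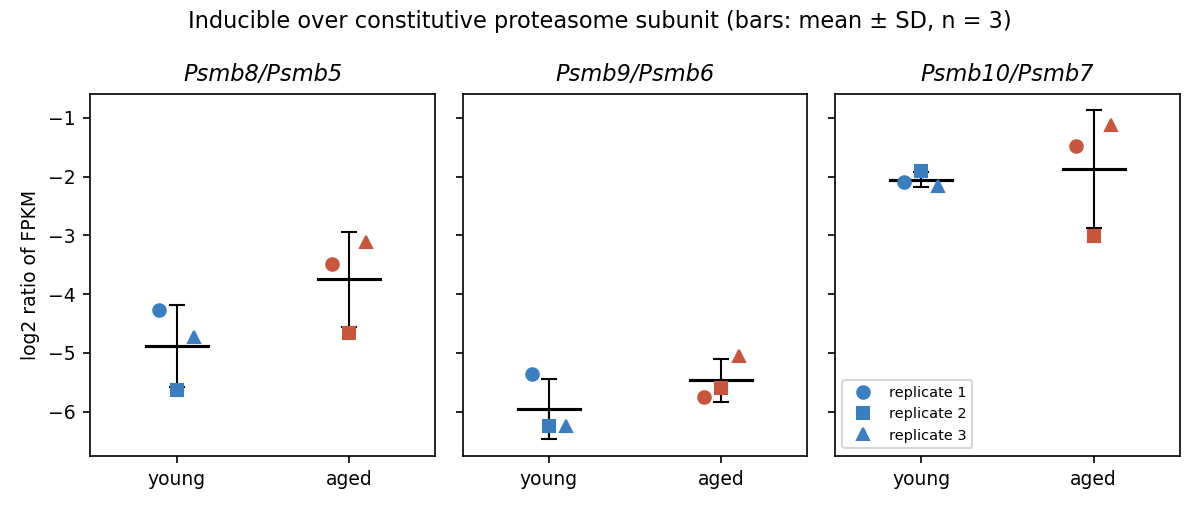
Log2 ratio of the FPKM of each inducible proteasome subunit to that of the constitutive subunit it replaces (y axis) in young and aged aorta (x axis), with 1 point per library and bars for mean ± SD (n = 3). All ratios are below 0, aged replicates 1 and 3 have the highest ratios of Psmb8 to Psmb5 and of Psmb10 to Psmb7, and aged replicate 2 has the lowest ratio of Psmb10 to Psmb7, at -3.01.

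The constitutive subunits Psmb5, Psmb6 and Psmb7 had log2 fold changes of 0.28 (SE 0.18), 0.23 (SE 0.20) and 0.32 (SE 0.20). Of these, 0 of 3 had an unadjusted p below 0.05 by edgeR, against 5.56% of all genes higher in aged aorta and 4.82% lower. Of the other genes of the immunoproteasome and its activator, 4 of 4 had a log2 fold change above 0, against 52.1% of all genes. Among them, 0 of 4 had an unadjusted p below 0.05 by edgeR, against the same shares of 5.56% and 4.82%. Psme1 and Psme2, which form the PA28 cap of the proteasome, were at 0.38 (SE 0.21) and 0.28 (SE 0.25), Pomp, the assembly chaperone, at 0.36 (SE 0.21) and Psmb10 at 0.66 (SE 0.41). The medians of these lists, 0.28 and 0.37, were both below that of the class I genes.

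Tap1 and Tap2 form the channel for peptides. Tap1 lies on chromosome 17 from 34187553 to 34197225 and Tap2 from 34203527 to 34216321, so that Psmb9, Tap1, Psmb8 and Tap2 stand within 34335 bp. Tap1 was at 7.66, 5.32 and 7.58 CPM in young and at 5.30, 7.95 and 9.20 CPM in aged aorta. The ranges overlapped, and unlike for H2-K1 and Psmb8, aged replicate 1 lay at the low end, level with young replicate 2. The means were 6.85 ± 1.33 (SD, n = 3) and 7.48 ± 1.99 (SD, n = 3) CPM, with a log2 fold change of 0.13 (SE 0.29, 95% interval -0.54 to 0.80; adjusted p 0.892 by edgeR). The sign of this value was not stable: it was -0.01 without young replicate 2, -0.05 without aged replicate 3 and -0.06 or -0.10 when limma was run on log2 FPKM after adding 1 or 0.1. It was 0.23 without young replicate 1, 0.22 without young replicate 3, 0.32 without aged replicate 1 and 0.08 without aged replicate 2.

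The Tap1 and Psmb9 genes are read in opposite directions from start sites 226 bp apart, and their promoter windows hold the same CCAAT and TGACG letters seen from either side. Their log2 fold changes, 0.13 for Tap1 and 0.59 for Psmb9, have intervals that overlap widely, and the difference was not tested. Transcript models of the pair share 212 exonic bases on opposite strands, which is 3.87% of Tap1 and 5.79% of Psmb9, and the strand setting of the counting is not given in the sources used here.

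Tap2 was at 27.7, 23.3 and 21.8 CPM in young and at 26.9, 26.1 and 35.2 CPM in aged aorta. Aged replicate 3 was the highest library, and young replicate 1 was above the other two aged libraries. The means were 24.3 ± 3.05 (SD, n = 3) and 29.4 ± 5.05 (SD, n = 3) CPM, with a log2 fold change of 0.27 (SE 0.18, 95% interval -0.15 to 0.70) and an adjusted p of 0.624 by edgeR. It was 0.39 without young replicate 1 and 0.35 without aged replicate 2, but 0.13 without aged replicate 3. Gm15821, a transcript on the opposite strand that shares 14.1% of the exonic bases of Tap2, had 8 to 22 counts per library.

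Tapbp lies on chromosome 17 from 33915899 to 33929292. Its level was 63.1, 50.2 and 55.8 CPM in young and 54.7, 37.3 and 62.4 CPM in aged aorta. Aged replicate 2 was the lowest and the other aged libraries lay within the young range. The means were 56.4 ± 6.45 (SD, n = 3) and 51.5 ± 12.8 (SD, n = 3) CPM, with a log2 fold change of -0.13 (SE 0.22, 95% interval -0.64 to 0.38; adjusted p 0.846 by edgeR), which was -0.03 without young replicate 1, 0.06 without aged replicate 2, -0.20 without young replicate 2 and -0.29 without aged replicate 3. Gm19412, an antisense transcript over 24.9% of the exonic bases of Tapbp, had 9 to 25 counts per library, against 1409 to 3057 for Tapbp itself.

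Among 11 other genes of peptide loading and trimming, 7 had a log2 fold change above 0, against 52.1% of all genes. Their median was 0.11. Of these 11, 0 had an unadjusted p below 0.05 by edgeR, against 5.56% of all genes higher in aged aorta and 4.82% lower. The 3 with the smallest p were Tapbpl, which edits peptides outside the loading complex, at 0.55 (SE 0.26), Pdia3, the disulfide isomerase bound to tapasin, at 0.38 (SE 0.19), and Bcap31, which helps class I molecules leave the endoplasmic reticulum, at 0.30 (SE 0.17). Tapbpl was at 9.35, 8.08 and 5.30 CPM in young and at 10.8, 10.1 and 12.4 CPM in aged aorta. In Tapbpl and Pdia3, 2 of the 11 genes, all 3 aged CPM values exceeded all 3 young ones, against 7.74% of all genes. In FPKM the groups of Tapbpl and Pdia3 overlapped. Aged replicate 2 was at 3.67 FPKM for Tapbpl and 133 for Pdia3, against 3.78 and 147 in young replicate 1.

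Nlrc5, on chromosome 8 from 94434356 to 94527272, encodes the activator that is recruited to class I promoters by the RFX and NF-Y factors. Nlrc5 was at 3.74, 5.55 and 6.82 CPM in young and at 2.38, 4.35 and 3.68 CPM in aged aorta, from counts of 79 to 234. The groups overlapped only through young replicate 1 and aged replicate 2. The means were 5.37 ± 1.55 (SD, n = 3) and 3.47 ± 1.00 (SD, n = 3) CPM, with a log2 fold change of -0.63 (SE 0.35, 95% interval -1.44 to 0.18; adjusted p 0.562 by edgeR). It was -0.82 both without young replicate 1 and without aged replicate 2, but -0.41 without young replicate 3 and -0.42 without aged replicate 1. Its value was thus on the other side of 0 from those of H2-K1, H2-D1, B2m and Psmb8, and aged replicate 1, the library with the highest H2-K1 and B2m, had the lowest Nlrc5.

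**Figure D3:**
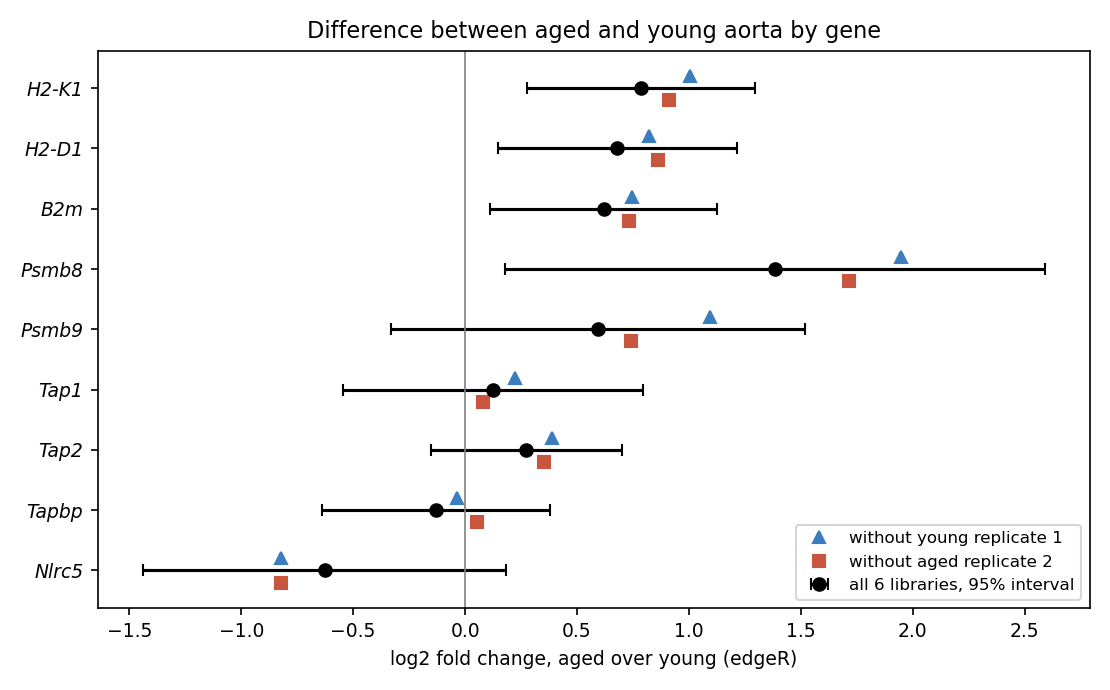
Log2 fold change of aged over young aorta (x axis) for each class I presentation gene (y axis). Black points with bars give edgeR's estimate and 95% interval from all 6 libraries, triangles the estimate without young replicate 1 and squares that without aged replicate 2. The intervals of H2-K1, H2-D1, B2m and Psmb8 lie above 0, the other 5 include 0, and Nlrc5 is at -0.63.

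Of 16 transcription factors of class I genes, 6 had a log2 fold change above 0 and 10 below, with a median of -0.05, and 2 had an unadjusted p below 0.05 by edgeR, both with aged aorta lower, against 4.82% of all genes. Nfya, a subunit of the CCAAT-binding factor NF-Y, was at 33.8, 38.8 and 53.6 CPM in young and 27.9, 22.1 and 24.6 CPM in aged aorta, so that all aged libraries were below all young ones, as in 8.78% of all genes, and its log2 fold change was -0.76 (SE 0.21; adjusted p 0.377 by edgeR). Rfxank, a subunit of the RFX complex, was at -0.47 (SE 0.19), while its partners Rfx5 and Rfxap were at -0.07 (SE 0.35) and -0.05 (SE 0.23). Nfyb was at 0.30 (SE 0.17). Irf1, which binds the IRF motif after interferon gamma, averaged 21.4 ± 1.04 CPM (SD, n = 3) in young and 26.3 ± 5.99 CPM (SD, n = 3) in aged aorta, a log2 fold change of 0.30 (SE 0.20).

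Of the interferons themselves, only Ifng and Ifnb1 were examined, and neither was detected. Ifng and Ifnb1 had 0 counts in all 6 libraries, which at 3 counts allows up to 0.0619 to 0.106 CPM, depending on the library, for counting error alone. Of 10 interferon ligands, receptors, kinases and the feedback inhibitor Socs1, 8 were tested, and 4 had a log2 fold change above 0 and 4 below. At an unadjusted p below 0.05 by edgeR, 1 of 8 was higher in aged aorta, against 5.56% of all genes, and 2 were lower, against 4.82%. The chains of the type I receptor differed in sign, with Ifnar2 at 0.55 (SE 0.17) and Ifnar1 at -0.43 (SE 0.14), and the kinase Tyk2, which binds Ifnar1, was at -0.48 (SE 0.18). In each of these 3 genes the groups did not overlap, as in 7.74% of all genes with aged aorta higher and 8.78% with it lower, and their adjusted p was 0.390, 0.411 and 0.438 by edgeR.

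Of 20 genes that respond to interferon, 19 were tested, with a median log2 fold change of 0.59. By edgeR on counts, 19 of 19 were above 0, against 52.1% of all genes. In mean FPKM, aged aorta was not above young aorta for all of these genes. At an unadjusted p below 0.05 by edgeR, 2 of 19 were higher in aged aorta, against 5.56% of all genes. These were Ifit1, which binds viral RNA, at 1.15 (SE 0.42), and Oasl2 at 1.13 (SE 0.45), and the ubiquitin-like modifier Isg15 was at 1.27 (SE 0.57). The summed level of the list was 179, 155 and 132 CPM in young and 263, 130 and 258 CPM in aged replicates 1 to 3. As for H2-D1 and Psmb8, aged replicates 1 and 3 were above all young libraries and aged replicate 2 was not; it was the lowest of the 6.

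Of 19 other class I and class I-like heavy chains, 13 were tested, 11 of them with a log2 fold change above 0, with a median of 0.63. At an unadjusted p below 0.05 by edgeR, 3 of 13 were higher in aged aorta, against 5.56% of all genes, and 0 were lower. Hfe, a class I-like molecule that binds the transferrin receptor and takes part in iron sensing, was at 10.3, 12.7 and 10.4 CPM in young and 28.6, 13.2 and 27.3 CPM in aged aorta, a log2 fold change of 1.05 (SE 0.31; adjusted p 0.382 by edgeR). Its adjusted p was 0.0465 by edgeR without aged replicate 2, the only one of the 13 below the threshold there, against 0.642% of all genes. H2-T23, which encodes Qa-1, a ligand of NK cell receptors, was at 21.7, 15.2 and 15.1 CPM in young and 58.2, 17.3 and 43.0 CPM in aged aorta, a log2 fold change of 1.18 (SE 0.42; adjusted p 0.421 by edgeR). H2-Q4 was at 24.01, 17.7 and 18.1 CPM in young and 29.0, 28.0 and 50.3 CPM in aged aorta, its log2 fold change being 0.84 (SE 0.27; adjusted p 0.392 by edgeR), with no overlap between the groups. In Hfe and H2-T23, as in H2-D1, aged replicates 1 and 3 were well above the young libraries while aged replicate 2 was close to them.

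Some cell type markers moved with the class I genes across libraries and others did not. The summed level of the 9 class I genes was 879, 661 and 705 CPM in young and 1326, 903 and 1174 CPM in aged replicates 1 to 3. Macrophage markers summed to 147, 108 and 108 CPM in young and 489, 147 and 320 CPM in aged aorta, in the same order of libraries at the top (aged replicates 1 and 3), and 9 of the 9 tested had an unadjusted p below 0.05 by edgeR with aged aorta higher, against 5.56% of all genes. Their median log2 fold change was 1.40, above the 0.59 of the class I genes, and 4 of 9 were higher by DESeq2 at an adjusted p below 0.05, against 1.48% of all genes. The pan-leukocyte gene Ptprc was at 0.874 to 4.28 CPM in young and 1.40 to 3.04 CPM in aged aorta. Dendritic cell and class II genes summed to 62.3, 63.3 and 36.4 CPM in young and 78.3, 107 and 103 CPM in aged aorta. Aged replicate 2 was the highest here, whereas it was the lowest aged library for the class I sum. The dendritic cell genes Flt3, Xcr1 and Itgax had 0 to 10 counts per library and were not tested. The sum therefore rests on Cd74, H2-Aa, H2-Ab1 and H2-Eb1. In 4 of these 4 all aged libraries were above all young ones in CPM, against 7.74% of all genes. In FPKM the groups of H2-Ab1 overlapped (aged replicate 1 at 4.15, young replicate 2 at 4.65). Those of H2-Eb1 overlapped as well (4.68 and 4.78 in the same libraries). T and NK cell markers summed to 1.36, 7.21 and 1.37 CPM in young and 1.47, 1.75 and 3.96 CPM in aged aorta, and B cell markers to 0.933 to 5.37 CPM over all libraries, in another order than the class I genes.

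Cells of the wall itself also differed between libraries. Fibroblast markers summed to 4224, 4339 and 5442 CPM in young and 9041, 2886 and 6137 CPM in aged aorta, so that aged replicate 2 was the lowest and aged replicate 1 the highest. The median log2 fold change of these markers was 1.32, with 5 of 6 above 0, against 52.1% of all genes. At an unadjusted p below 0.05 by edgeR, 3 of 6 were higher in aged aorta, against 5.56% of all genes. By DESeq2, 1 of 6 was higher at an adjusted p below 0.05, against 1.48%. Endothelial markers were at 342 to 489 CPM in 5 libraries and at 1686 CPM in aged replicate 3. Smooth muscle markers were at 32232 to 40140 CPM in young and 27960 to 33326 CPM in aged aorta. Adipocyte markers reached 2052 CPM in aged replicate 2 and 746 CPM in young replicate 2, against 97.0 to 304 CPM in the other libraries. Cardiac muscle markers were at 323 CPM in young replicate 1 and at 81.8 to 94.0 CPM elsewhere. The part of these cell types in the class I values was not tested, since age and cell composition cannot be told apart in 6 whole-tissue libraries.

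**Figure D4:**
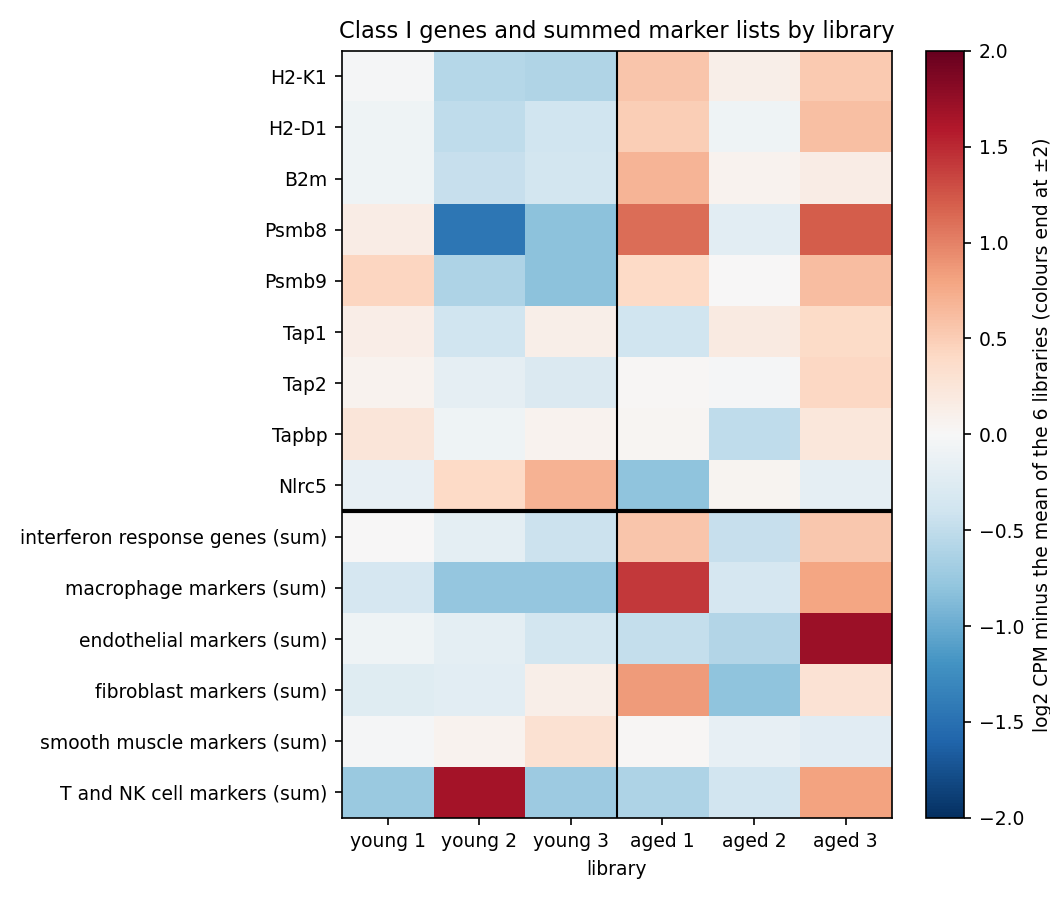
Log2 CPM minus the mean of the 6 libraries (colour) for each class I presentation gene and for the summed CPM of marker lists (rows) in each library (columns). Aged replicates 1 and 3 are above the mean for H2-K1, H2-D1, B2m, Psmb8 and Psmb9 and for interferon response genes, macrophage markers and fibroblast markers, and Nlrc5 has the opposite colours in aged replicate 1.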

How the data were processed

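RNA from the aorta of 6 mice was sequenced with SMARTER mRNA libraries, per the labels. The authors deposited a table of read counts per gene, whole numbers without normalization, and a table of FPKM, scaled by the authors for gene length and library total. The labels name mm10; the aligner, counting tool and strand setting are not given in the sources used here.

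Counts were filtered (filterByExpr, minimum count 10, minimum total 15), TMM normalized and fitted with edgeR 4.0.16 by quasi-likelihood in R 4.3.3, with no covariate, and p was adjusted by Benjamini-Hochberg over all genes tested (threshold 0.05). SE is the log2 fold change over the square root of F. The fit was tested on simulated data. Ratios used two-sided exact permutation tests. The alternatives were RLE size factors, other count filters, a block for the replicate number, leaving out single libraries, no mitochondrial genes, DESeq2 1.42.0 and limma 3.58.1 on log2 FPKM. Groups that do not overlap were recounted in 5 libraries after the data had been seen.

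The class I genes and all lists were chosen with earlier results of these data known. Named were all 9 class I genes, Psmb5, Psmb6, Psmb7, the 3 tested genes of each pathway list with the smallest unadjusted p, and 5 genes most like the class I mean. Rfx5, Rfxap, Irf1, Psmb10, Psme2, Ifng, Ifnb1, H2-Q10 and H2-Q1 were named after their values were seen. The macrophage marker Itgam, which has more than 1 row, was left out. Coordinates and transcripts are from GENCODE M21 (GRCm38), promoters from RefSeq (GRCm38.p6). With 31049632 to 45832185 counts per library, the smallest class I count was 79.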

Additional observations from a re-analysis of the deposited data

How the results depend on the processing

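No class I gene was called at an adjusted p below 0.05 under any alternative run, block included. The lowest was 0.0600 for H2-K1 by DESeq2, whose adjusted p ranged up to 0.765 over its alternatives. Over the 9 genes and 14 alternatives, 121 of 126 log2 fold changes kept their direction and their side of the threshold, and 5 turned: Tap1 at -0.0145 without young replicate 2, -0.0474 without aged replicate 3, -0.0557 by limma with a pseudocount of 1 and -0.0999 with 0.1, and Tapbp at 0.0553 without aged replicate 2. With each library left out, Tap1 ranged from -0.05 to 0.32 and Tapbp from -0.29 to 0.06. The difference in the log2 ratio of Psmb10 to Psmb7 turned to -0.01 and -0.19 and reached 0.76 when a library was left out; the other ratios kept their sign. The cause was not tested. On log2 FPKM, limma gave a median over all genes of -0.12 (pseudocount 1) and -0.19 (0.1), against 0.02, with class I medians of 0.22 and 0.38, and 1 class I gene, H2-K1, at an unadjusted p below 0.05, against 16.1% and 16% of all genes in either direction. With a pseudocount of 1 it lowered H2-K1 to 0.56, H2-D1 to 0.44, B2m to 0.38 and Psmb8 to 0.81. It also lowered Psmb9 to 0.22 and Tap2 to 0.04, and put Nlrc5 at -0.27 and Tapbp at -0.35. The TMM factors, which scale CPM but not the deposited FPKM, were 1.058, 1.093 and 1.106 in young replicates 1 to 3. In aged replicates 1 to 3 they were 0.943, 0.936 and 0.886, and their part in the lower FPKM values was not tested.

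Over all genes, edgeR called 0 at an adjusted p below 0.05 with 1723 at an unadjusted p below 0.05. DESeq2 called 338, and edgeR between 0 and 110 with a library left out, 110 without aged replicate 2. Same-numbered libraries are different mice of different age. Their deviations from the group means correlated at 0.07, 0.11 and 0.09, above those of differently numbered libraries, at -0.13 to 0.05. Whether the numbers mark something shared between libraries cannot be told from these values and was not tested. With the replicate block, 0 genes and 0 class I genes were called, and 4 of 9 class I genes had an unadjusted p below 0.05, as without it. Genes under about 100 counts, such as Nlrc5 in aged replicate 1 (79) and Psmb9 in young replicate 3 (80), rest on few reads.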

Other observations

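Among 14004 genes outside the class I pathway lists with a mean of at least 1 CPM, 5 had a profile over the 6 libraries most like the mean of the 9 class I genes in log2 CPM. They were Tcaf2 (Pearson's r 0.988), Pcdh19 (0.988), Znhit2 (0.987), Prrg1 (0.983) and Litaf (0.983), each over 6 libraries that share age group and tissue composition, so the values only describe these libraries. Litaf, a protein of endosome and lysosome membranes, was at 28.8, 18.7 and 22.1 CPM in young and 31.4, 23.2 and 37.2 CPM in aged aorta. Pcdh19, a protocadherin, was at 2.44, 0.718 and 1.05 CPM in young and 5.30, 2.17 and 6.62 CPM in aged aorta. The mean class I profile itself, in log2 CPM around each gene's mean, was 0.07, -0.43 and -0.27 in young and 0.23, -0.05 and 0.44 in aged replicates 1 to 3, so young replicate 1 was above aged replicate 2.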
